A study of Mus musculus with 2 samples.

Results

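The miR-34 and miR-449 seed family was examined in mouse J1 ES cells through 6 annotated hairpins, Mir34a, Mir34b, Mir34c, Mir449a, Mir449b and Mir449c, of the 1174 hairpins that GENCODE annotates on GRCm38 under a symbol starting with Mir. The members were the sequenced tags that matched these hairpins without mismatch. J1, a line of mouse embryonic stem cells, was grown here without feeder cells on gelatin in knockout serum replacement medium with LIF, and AICAR enters cells and activates the energy sensor kinase AMPK. Cells received AICAR at 1 mM, or DMSO alone (0 mM AICAR), for 24 h, and small RNA from 1 library per condition was sequenced, so that no difference below has a replicate check. The DMSO library held 18870345 clean reads and the AICAR library 21091226. Levels were expressed as reads per 1000000 clean reads (RPM), and fold changes give AICAR over DMSO. Where a pair of values is given without names, the DMSO library comes first.

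MicroRNAs are cut from hairpin precursors, and the arm that is loaded into an Argonaute protein finds its target mRNAs mainly through its seed, the bases just behind the 5′ end. The 5p arms of miR-34 and miR-449 share a seed and so have overlapping sets of predicted targets, among which cell cycle, Notch pathway and anti-apoptotic genes are well known. Transcription of Mir34a and of the Mir34b and Mir34c unit is activated by p53, whereas the Mir449 cluster is expressed with its host gene and is best known from multiciliated epithelia, where the 3 loci act together.

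The 5p sequences are shown because the summed dose below rests on their common seed, with bases 2 to 8 in capitals. Mature sequences in RNA letters are from RefSeq (GRCm38.p6), which gave 9 mature sequences for 5 of the 6 hairpins. The sequence of miR-34c-5p, in DNA letters, is the tag with the most reads on that arm in the deposited files.
miR-34a-5p: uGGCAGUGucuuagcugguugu
miR-34b-5p: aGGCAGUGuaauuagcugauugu
miR-34c-5p: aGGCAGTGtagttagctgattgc
miR-449a-5p: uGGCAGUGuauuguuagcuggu
miR-449c-5p: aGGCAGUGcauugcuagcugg
The 5 seeds are identical, and miR-34a-5p and miR-449a-5p start with U where the others start with A. The 3p arms, shown for contrast, do not carry this seed. Only those of Mir34b and Mir34c have a seed in common.
miR-34a-3p: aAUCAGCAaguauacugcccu
miR-34b-3p: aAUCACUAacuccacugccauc
miR-34c-3p: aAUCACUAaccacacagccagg
miR-449a-3p: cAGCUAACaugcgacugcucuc
miR-449c-3p: cAGUUGCUagcugcacuacccu

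The hairpins lie in 3 loci (GRCm38). Mir34a (ENSMUSG00000065493.1) is at chr4:150068454-150068555 on the plus strand, and its last 17 bases overlap the exon of Gm37795, an unclassified transcript of the same strand. Mir34b (ENSMUSG00000065492.1, chr9:51103562-51103645) and Mir34c (ENSMUSG00000065587.1, chr9:51103034-51103110) are on the minus strand with 451 bases between them, inside the protein-coding gene Btg4 of the opposite strand but in none of its exons. Mir449c (ENSMUSG00000076146.1, chr13:113035983-113036091), Mir449b (ENSMUSG00000078027.1, chr13:113037419-113037498) and Mir449a (ENSMUSG00000065575.1, chr13:113037534-113037624) follow each other on the plus strand in intronic sequence of Cdc20b, with gaps of 1327 and 35 bases. The family had 80 distinct tags, of which 69 were in the DMSO library, 65 in the AICAR library and 54 in both. None of the 80 tags matched a hairpin outside the family, and none matched another GENCODE transcript on either strand. Together they held 9820 reads (DMSO) and 16565 reads (AICAR), which is 0.45% and 0.50% of all hairpin reads.

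Tags were counted for an arm when their ends lay no more than 2 nt (5′) and 4 nt (3′) from those of its most abundant tag, and an arm was tested when it reached 1 RPM in at least 1 library. Of 12 possible arms, 9 had reads and 8 were tested. With a fold change of at least 2 and a p-value of at most 0.01 in a two-sided Fisher's exact test on the reads, 0 of the 8 arms were called higher in the AICAR library, where 11.0% of all 509 tested miRNAs were. With a fold change of at most 0.5 and the same p-value, 2 of the 8 were called lower, miR-449a-5p and miR-449c-5p, where 9.63% of the 509 were. By the p-value alone, 3 arms were higher against 35.0% of all miRNAs and 2 were lower against 25.0%. This test compares the reads of these libraries, not the conditions. Over all 509 miRNAs the median fold change was 1.10 (log2 0.13), with 56 called higher and 49 lower. Relative to miRNA-assigned reads, which made up 11.5% of the DMSO and 15.7% of the AICAR clean reads, the median was 0.805 (log2 -0.31), with 21 called higher and 113 lower. Intervals below are at the 95% level and cover counting error alone, because PCR copies of a molecule were not told apart. Differences between sequences in adaptor ligation and PCR were not measured either. Levels, ratios and shares of different arms or loci within a library therefore compare reads, not molecules.

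The loci of the family moved in different directions between these libraries. Seed dose is the sum of reads on family tags whose own bases 2 to 8 are the shared seed. Over all loci it was 9618 reads under DMSO and 16319 under AICAR, or 509.7 and 773.7 RPM. The AICAR library was thus 1.52-fold higher (1.48 to 1.56, Fisher's exact test p = 3.5e-238). Of all 509 tested miRNAs, 25.3% had a higher fold change than this. Relative to miRNA-assigned reads, the dose was 0.443% and 0.493%, a fold change of 1.11.

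Mir34b and Mir34c gave 9023 and 15377 seed reads, or 478 and 729 RPM, a fold change of 1.52 (1.49 to 1.57). They made up 93.8% and 94.2% of the dose, so that the family total is close to the value of this locus. Mir34a gave 414 and 851 seed reads, or 21.9 and 40.3 RPM, a fold change of 1.84 (1.63 to 2.07), and its share of the dose was 4.30% and 5.21%. The Mir449 cluster gave 181 and 91 seed reads, or 9.59 and 4.31 RPM, a fold change of 0.450 (0.346 to 0.582), and its share was 1.88% and 0.558%. The Mir449 cluster therefore contributed little to the dose in either library. With an assumed coefficient of variation of 0.2 between cultures, edgeR's exact test gave p = 0.144 for the whole dose, 0.0379 for Mir34a, 0.140 for Mir34b and Mir34c, and 0.0121 for Mir449, none of them under 0.01.

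Ratios of seed reads between loci within a library do not depend on the denominator, and all 3 pairs were compared. The ratio of Mir34b and Mir34c reads to Mir34a reads was 21.8 under DMSO and 18.1 under AICAR, a change by a factor of 0.829 (0.733 to 0.936). The adjusted p of the exact test was 0.00228, and with only tags identical to the most abundant tag of each arm it was 0.0377. Relative to Mir34a, the Mir449 cluster changed by a factor of 0.245 (0.183 to 0.326, adjusted p of the exact test 3.5e-24). Relative to Mir34b and Mir34c, it changed by a factor of 0.295 (0.226 to 0.382, adjusted p of the exact test 2.5e-22). The fall of the Mir449 cluster against the other loci was larger than the counting error in both comparisons.

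**Figure D1:**
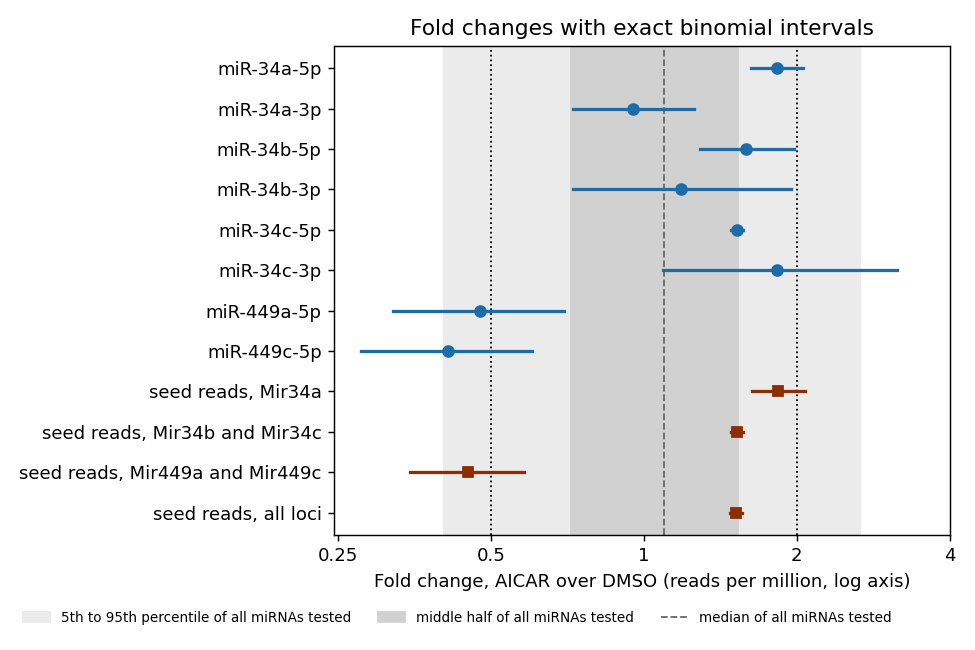
Fold change between the AICAR and DMSO libraries on a log axis for the 8 tested arms (circles) and for the seed reads of each locus (squares), with 95% exact binomial intervals as lines. Dotted lines mark the fold limits 0.5 and 2, the dashed line is the median of the 509 miRNAs (1.10), and shading gives their middle range and their 5th to 95th percentiles (0.404 to 2.66). The Mir449 values lie below 0.5 and the 5p arms of the miR-34 hairpins lie between 1.52 and 1.83.

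miR-34c-5p was the main carrier of the seed in both libraries. Its reads numbered 8894 (DMSO) and 15154 (AICAR), or 471 and 718 RPM, and stood at rank 44 and rank 36 of 1148 miRNAs with reads. Its fold change was 1.52 (1.48 to 1.57, Fisher's exact test p = 2.8e-225), and 25.1% of tested miRNAs had a higher one. The Mir34c hairpin alone held 92.5% and 92.9% of the seed dose. Without it, the remaining dose was 720 and 1165 reads, or 38.2 and 55.2 RPM, a fold change of 1.45 (1.32 to 1.59).

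miR-34b-5p, from the hairpin next to Mir34c, had 140 and 249 reads, or 7.42 and 11.8 RPM. Its fold change was 1.59 (1.29 to 1.97, Fisher's exact test p = 9.2e-06). Relative to miRNA-assigned reads it was 1.17 (0.946 to 1.45, Fisher's exact test p = 0.147). Counted by the seed, Mir34c exceeded Mir34b 71.2-fold and 68.0-fold in the respective libraries. The ratio of Mir34b to Mir34c changed by a factor of 1.05 (0.836 to 1.32), so that a difference between these neighbours was not detectable at this depth.

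The most abundant tags of miR-34c-5p and miR-34b-5p differ by G11A and C23T, counted from the 5′ end with the base of miR-34c first. Tags 1 base away from the abundant miR-34c-5p tag were therefore counted. The 57 single substitutions at bases 2 to 20 had 54 and 61 reads together, the most read being T7G with 7 and 3 reads, and G11A had 0 reads in both libraries. At the last base there were more, with 104 and 205 reads for C23T and 22 and 57 for C23A. The C23T tag is at once the miR-34c-5p tag of 22 nt with an added T and the miR-34b-5p tag with A11G, here with the base of miR-34b first, and it was counted for neither arm. With 1 internal mismatch allowed it falls to miR-34b-5p, where the count then rises to 245 and 456 and the fold change is 1.67 (1.42 to 1.95). Of the miR-34b tags, 6 were 1 base away from a miR-34c tag and held 25 and 43 reads. The other reads of the arm, 120 and 207, gave a fold change of 1.54 (1.23 to 1.95).

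miR-34a-5p, the arm best known as a p53 target in many tissues, had 422 and 862 reads, or 22.4 and 40.9 RPM. Its fold change was 1.83 (1.62 to 2.06, Fisher's exact test p = 2.1e-25), under the limit of 2. Among tested miRNAs 15.3% had a higher fold change. The opposite arm, miR-34a-3p, gave 107 and 114 reads (5.67 and 5.41 RPM) with a fold change of 0.953 (0.726 to 1.25, Fisher's exact test p = 0.737). Relative to miRNA-assigned reads this was 0.70 (0.533 to 0.919, Fisher's exact test p = 0.00885). The arms of this hairpin thus gave different fold changes, and the difference is tested with the arm shares below.

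The Mir449 cluster was low in both libraries. miR-449c-5p had 89 and 41 reads, and 94.1% of tested miRNAs had a higher fold change than its 0.412. For miR-449a-5p, with 81 and 43 reads, this share was 91.6%, at a fold change of 0.475. The ratio of Mir449a to Mir449c seed reads was 0.810 and 0.896 and changed by a factor of 1.11 (0.646 to 1.89), so that no difference between them was detectable at this depth. For miR-449a-3p the DMSO library held 3 reads and the AICAR library 0. Neither miR-449c-3p nor either arm of Mir449b had a read. The floor, set at 3 reads, was 0.159 RPM in the DMSO library and 0.142 RPM in the AICAR library. Both called arms of the cluster lose their call when the spread between cultures is assumed to be 0.2 (edgeR's exact test, p = 0.0378 for miR-449a-5p and 0.0119 for miR-449c-5p).

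A read counts a whole miRNA, so that RPM needs no correction for length. The order below is one of reads and may differ from that of molecules. In order of level, miR-34c-5p and miR-34a-5p came first in both libraries, followed by miR-34b-5p and miR-34a-3p, whose intervals overlapped in the DMSO library (6.24 to 8.75 and 4.65 to 6.85 RPM) but not in the AICAR library (10.4 to 13.4 and 4.46 to 6.49 RPM). In the DMSO library miR-449c-5p (4.72 RPM) and miR-449a-5p (4.29 RPM) came next, with overlapping intervals, before miR-34b-3p (1.64 RPM) and miR-34c-3p (1.22 RPM). In the AICAR library these 4 arms lay between 1.94 and 2.23 RPM, and their order is within the counting error. The 31 and 41 reads of miR-34b-3p gave a fold change of 1.18 (0.724 to 1.95), which turned to 0.868 relative to miRNA-assigned reads. The 23 and 47 reads of miR-34c-3p gave one of 1.83 (1.09 to 3.15, Fisher's exact test p = 0.0166).

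**Figure D2:**
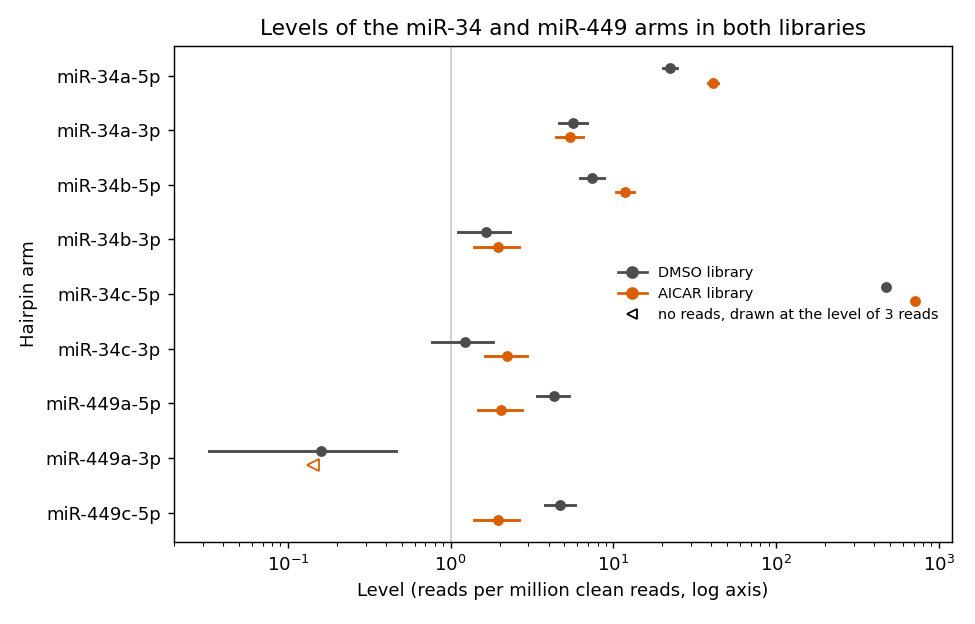
Level of each arm with reads in the DMSO library (grey) and the AICAR library (orange), in RPM on a log axis, with 95% exact Poisson intervals. miR-34c-5p lies at 471 and 718 RPM and every other arm at or below 40.9 RPM, the vertical line marks 1 RPM, and the open triangle stands for 0 reads of miR-449a-3p, drawn at the level of 3 reads.

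The use of the arms was compared within each hairpin, which again does not depend on the denominator. For Mir34a the 5p arm held 79.8% (95% Wilson interval 76.1% to 83.0%) of the arm reads under DMSO and 88.3% (86.2% to 90.2%) under AICAR. The ratio of 3p to 5p reads changed by a factor of 0.522 (0.387 to 0.704, adjusted p of the exact test 5.0e-05 over the 4 hairpins with reads on both arms). For Mir34b the 5p share was 81.9% and 85.9%, and the ratio changed by a factor of 0.744 (0.434 to 1.29). For Mir34c the 5p share was 99.7% in both libraries, and the ratio changed by a factor of 1.20 (0.713 to 2.07). Mir449a had 96.4% and 100% of its reads on the 5p arm, and Mir449c 100% in both. Of the 4 hairpins tested, Mir34a alone passed, the other adjusted p-values of the exact test being 0.550.

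**Figure D3:**
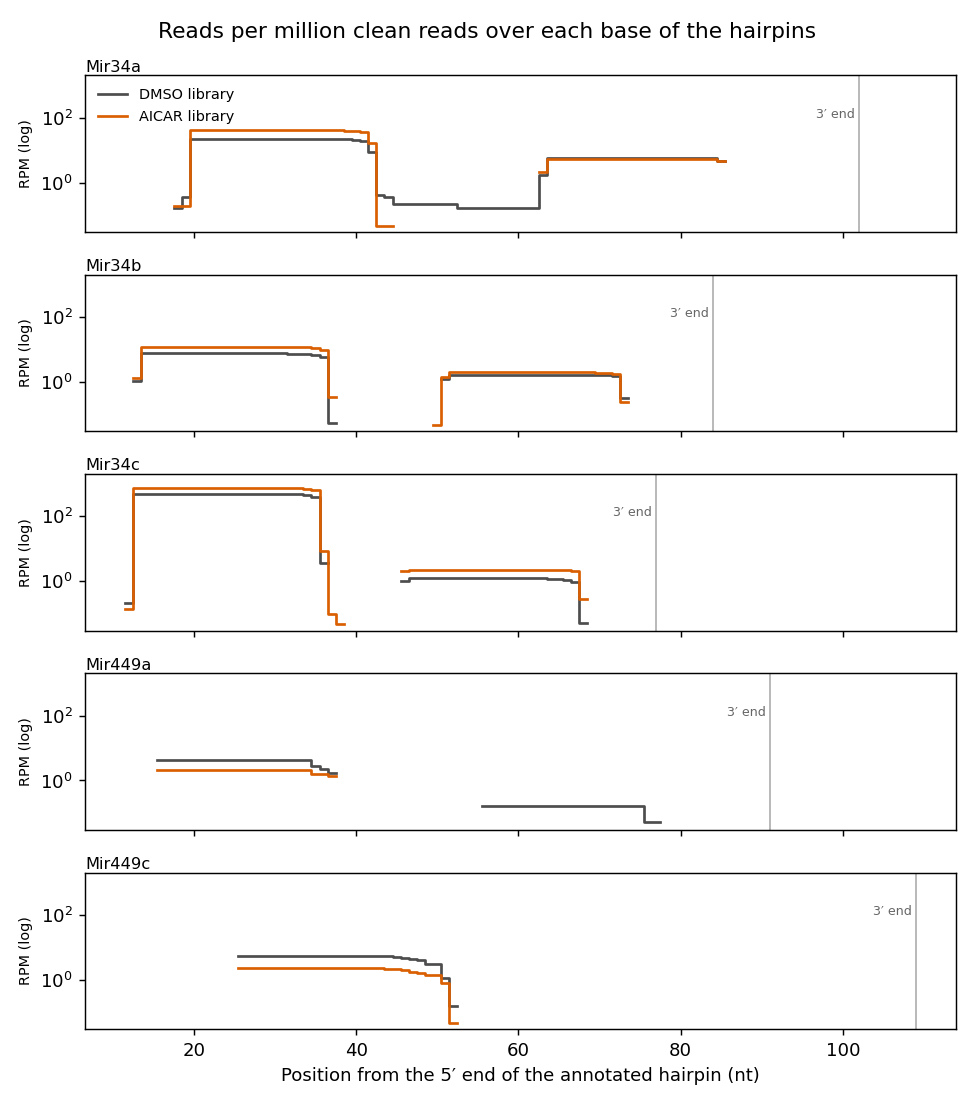
RPM (log axis) over each base of the 5 hairpins with reads, counted from the 5′ end of the annotated hairpin, for the DMSO (grey) and AICAR (orange) libraries. The 5p block of Mir34a is higher in the AICAR library (862 against 422 reads) while its 3p block nearly coincides (114 against 107 reads), and both Mir449 hairpins show their reads on the 5p side, except for 3 reads of Mir449a.

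The 5′ end of a tag sets its seed. Over all tags of an arm, those with the 5′ end of the most abundant tag made up 97.9% and 98.7% of miR-34a-5p reads, and all reads of miR-449a-5p and miR-449c-5p in both libraries. Only 6 of 8904 and 6 of 15160 reads of miR-34c-5p started elsewhere. The most variable 5p arm was miR-34b-5p, where tags starting 1 base earlier held 20 and 27 reads, or 13.8% (9.11% to 20.3%) and 10.8% (7.53% to 15.3%). The most read of these tags is shown beside the most abundant one, with bases 2 to 8 in capitals.
Most abundant tag: aGGCAGTGtaattagctgattgt
Tag starting 1 base earlier: tAGGCAGTgtaattagctgattg
The earlier start moves the seed by 1 base, and these tags were not part of the seed dose. The first tag had 110 and 193 reads and the second 10 and 19. On the miR-34a-3p arm tags starting 1 base earlier held 31 and 46 reads, or 28.2% and 40.4%, and the ratio of other to most abundant 5′ ends changed by a factor of 1.57 (0.873 to 2.83). Of the 8 arms tested for a change in 5′ ends, none passed the test, the lowest adjusted p of the exact test being 0.741. For miR-449a-5p and miR-449c-5p the test could not show a change, since no read had another 5′ end.

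The 3′ ends were more variable, and their lengths set the members apart. Over all tags of an arm, miR-34a-5p reads were on average 22.2 nt long in both libraries, with tags of 22 nt holding 50.8% and 51.0% and tags of 23 nt 36.6% and 40.0%. miR-34c-5p reads were mostly 23 nt long, 85.2% and 86.3%. The longest tags were those of miR-449c-5p, with a mean of 23.8 and 23.9 nt, as against 20.5 and 21.2 nt for its neighbour miR-449a-5p. The most abundant tag of miR-449c-5p had 25 nt with 34 and 12 reads, followed by one of 26 nt with 19 and 16 reads, while the mature form of 21 nt in RefSeq had 7 and 3 reads. The tag of 25 nt is shown with the seed in capitals, and it extends past the RefSeq 3′ end.
miR-449c-5p tag: aGGCAGTGcattgctagctggctgt

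The length classes of miR-449a-5p had different fold changes. Its 2 most read tags are shown with the seed in capitals, since the call of this arm depends on them.
Tag of 19 nt: tGGCAGTGtattgttagct
Tag of 22 nt: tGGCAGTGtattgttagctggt
The shorter one had 27 and 9 reads and the longer one, which is the RefSeq form, 32 and 28. Tags under 21 nt made up 46.9% (36.4% to 57.7%) of the arm under DMSO and 23.3% (13.2% to 37.7%) under AICAR. Their fold change was 0.235 (0.105 to 0.482), against 0.687 (0.423 to 1.11) for tags of at least 21 nt. The ratio of short to longer reads changed by a factor of 0.343 (0.133 to 0.837). In a test chosen after the values were seen, the adjusted p of the exact test over 8 arms was 0.0477, above the limit of 0.01. Short tags were also more frequent in the DMSO library over all hairpin reads, 9.49% against 3.81%, and over all clean reads, 21.3% against 16.3%, and their part in the fall of miR-449a-5p was not tested. For miR-449c-5p tags under 21 nt held 11.0% and 14.6% of the reads, and the fold change of the longer tags was 0.412. On miR-34c-5p they held 41 and 26 reads, 0.460% and 0.172% of the arm, a lower share under AICAR as over all hairpin reads. The ratio changed by a factor of 0.371 (0.218 to 0.622), the only one of the 8 arms under the limit (adjusted p of the exact test 0.000525).

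**Figure D4:**
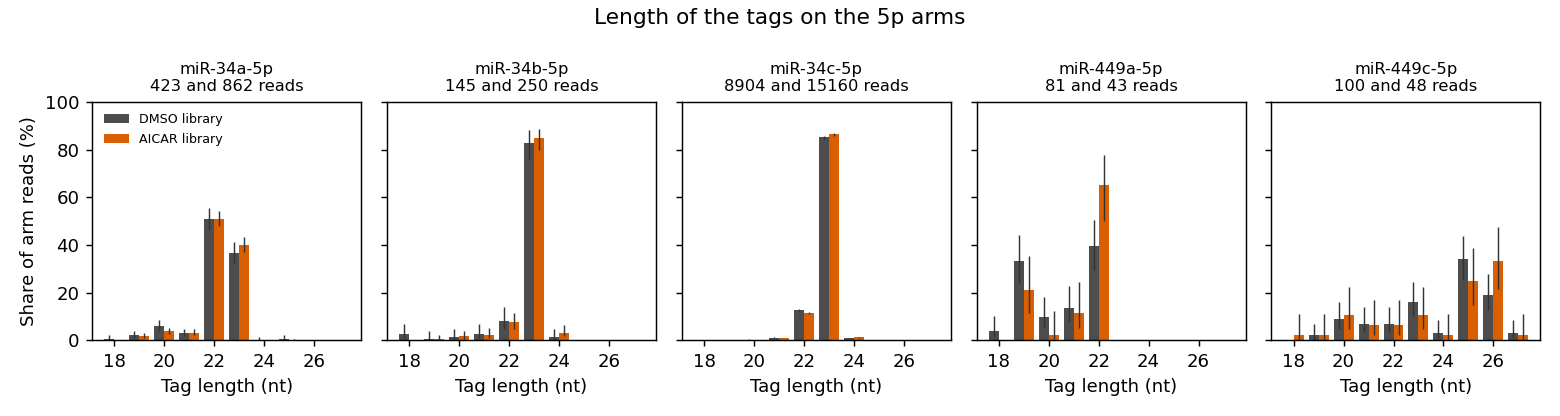
Share of the reads of each 5p arm by tag length (nt), all tags of the arm included, in the DMSO (grey) and AICAR (orange) libraries, with 95% Wilson intervals. Tags of miR-34b-5p and miR-34c-5p gather at 23 nt, those of miR-449a-5p at 19 and 22 nt and those of miR-449c-5p at 25 and 26 nt, and the 22-nt share of miR-449a-5p was 39.5% and 65.1%.

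Tags that ended in 1 to 3 bases not found in the hairpin (tails) were not part of these counts. On miR-34a-5p they held 72 reads under DMSO and 217 under AICAR, or 14.6% (11.7% to 17.96%) and 20.1% (17.8% to 22.6%) of the reads with and without tails. On miR-34c-5p they held 352 and 592 reads, 3.81% and 3.76%. With tails counted, the fold change of the Mir34a seed reads was 1.96, and that of the Mir34b and Mir34c seed reads was 1.52.

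**Figure D5:**
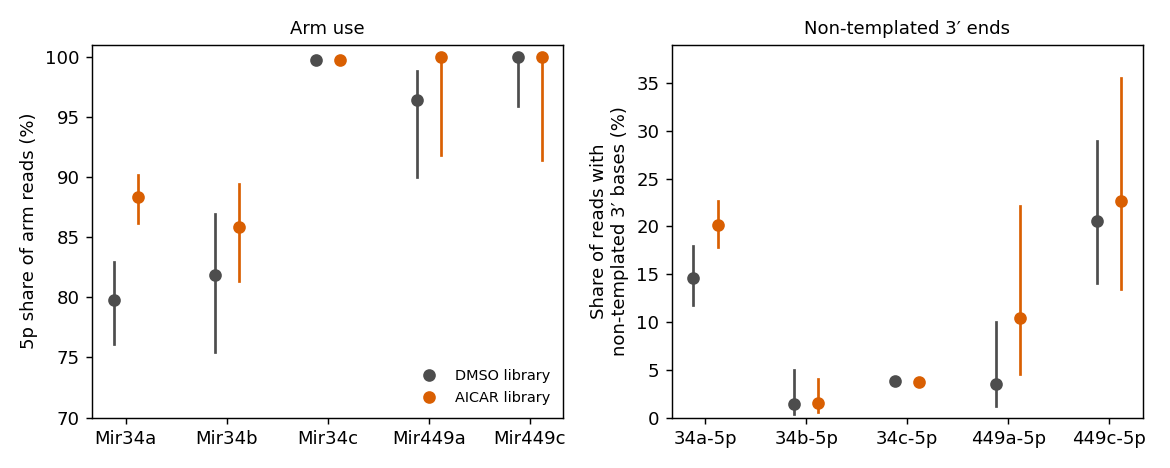
Left, share of the arm reads on the 5p arm of each hairpin (axis from 70%), and right, share of the reads of each 5p arm with 1 to 3 non-templated 3′ bases, in the DMSO (grey) and AICAR (orange) libraries with 95% Wilson intervals. The Mir34a intervals do not overlap on the left (79.8% and 88.3%), and on the right miR-34c-5p lies at 3.81% and 3.76%.

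Among 931 seeds of miRNAs with reads, the shared seed was at rank 36 under DMSO and rank 28 under AICAR by reads, and no arm outside the family carried it. The same 7 letters stood at bases 2 to 8 of 33927 and 41143 reads of all kinds, of which the family held 28.3% and 39.7%. The rest were 24309 and 24824 reads on tags that matched no hairpin, and 96.8% and 94.9% of these were on tags with a common start that matched no GENCODE transcript. These reads were not counted in the dose.

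The miRNAs nearest to the seed dose in the RPM of both libraries were miR-21a-5p (556 and 636 RPM), miR-130a-3p (640 and 741 RPM) and miR-294-5p (393 and 760 RPM). Their distances on the log2 scale over the 2 libraries were 0.31, 0.33 and 0.38, and their fold changes were 1.14, 1.16 and 1.94. Of these, miR-294-5p belongs to the miR-290 cluster of ES cells.

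Other miRNAs known to respond to p53 were taken from 7 hairpins, those of miR-192, both copies of miR-194, miR-215, miR-107, miR-200c and miR-141. Of their 12 arms with reads 6 were tested, and 0 were called higher and 0 lower. Over all 509 tested miRNAs 11.0% were called higher and 9.63% lower, so that 0 of 6 is near these shares. Their fold changes ran from 0.925 to 1.37 with a median of 1.13 (log2 0.16), beside 1.10 for all tested miRNAs. The most abundant was miR-107-3p with 1743 and 2180 RPM. The fold changes of the 5p arms of Mir34a, Mir34b and Mir34c, between 1.52 and 1.83, lay above the highest of these 6. That highest value was of miR-141-3p, with 19 and 29 reads, and its interval (0.740 to 2.58) covered the miR-34 values. A difference between the list and the miR-34 arms was not tested.

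The labelled cell type was checked with miRNA markers. Of 10 hairpins typical of ES cells 9 were found by their symbols, and their arms summed to 31090 and 53920 RPM. Of 14 arms tested, 2 were called higher and 2 lower, beside 11.0% and 9.63% of all 509 tested miRNAs. The remaining hairpin, sought as Mir292a, is annotated as Mir292 and is missing from this sum. Its arms miR-292-3p (1355 and 2198 RPM) and miR-292-5p (596 and 1082 RPM) were not called. The most abundant arms of the sum were miR-293-3p (11544 and 19197 RPM) and miR-290a-5p (10961 and 18554 RPM). Called higher were both arms of Mir291a, and called lower were both arms of Mir302a. The tested arms of the listed Mir290a to Mir295 hairpins had fold changes from 1.21 to 2.51. Those of the Mir302 hairpins ran from 0.170 to 0.992. Markers of fibroblasts, including miR-21a, summed to 683 and 791 RPM and markers of neural cells to 277 and 428 RPM, and of the 4 arms tested in each list none was called. For the liver miRNA miR-122-5p the reads went from 55 to 536 (fold change 8.72), and the myeloid miRNA miR-223 had 0 reads in both. The part of other cell types in the family's values was not tested.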

How the data were processed

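Small RNA of 18 nt and more from J1 ES cells, 1 library per condition, was sequenced. The authors removed low-quality and contaminant reads, merged identical reads to tags and deposited the count of reads for every tag with its length and sequence, without normalization or alignment. The cleaning tool is not given in the sources used here, and the submitters' processing notes name the build mm9. The title of the control sample is J1_U, and its treatment label, DMSO, was used for the grouping. The labels name an RNA library kit, whereas the paper's methods describe adaptor ligation to size-selected small RNA.

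From these counts, tags were matched without mismatch to 1174 GENCODE vM21 hairpins (GRCm38). Tags fitting several miRNAs were counted in full for each. A genome search was not run here. RPM used all clean reads (18870345 and 21091226), and 1 read is 0.0530 and 0.0474 RPM. Arms reaching 1 RPM in either library were tested by Fisher's exact test (two-sided), with Benjamini-Hochberg adjustment where stated. Intervals were exact binomial for fold changes, exact Poisson for levels and Wilson for shares. Named were all arms of the 6 hairpins, the 3 miRNAs nearest to the seed dose and any arm with the same seed. Members and lists were chosen with earlier results of these data known. Alternatives were other denominators (miRNA reads, TMM, median ratio), tag rules, filters, thresholds and the edgeR exact test with a coefficient of variation set to 0.2 or 0.4. The latter was added for seed doses after seeing the data. On simulated data 1264 of 1291 planted tags were recovered, 196 of 200 4-fold changes among 509 miRNAs were called and 0 of 309 unchanged ones were. The simulated counts varied by Poisson counting error alone. They therefore cannot show how often spread between cultures would give a call. Python 3.11.15, numpy 2.4.6, scipy 1.17.1, matplotlib 3.10.9, R 4.3.3 and edgeR 4.0.16 were used.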

Additional observations from a re-analysis of the deposited data

Results flagged for a closer look

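Tags with 1 to 3 bases after the templated 3′ end stood outside the counts of the report, and on miR-34a-5p and miR-34c-5p the interval of their fold change lay above 1. On miR-34a-5p they had 217 reads in the AICAR and 72 in the DMSO library, 10.3 and 3.82 RPM, a fold change of 2.70 (2.06 to 3.57), as against 1.83 for the templated tags. On miR-34c-5p they had 592 reads in the AICAR and 352 in the DMSO library, 28.1 and 18.7 RPM, a fold change of 1.50 (1.32 to 1.72), beside 1.52 for the templated tags. miR-449c-5p had 12 reads with tails in the AICAR and 23 in the DMSO library, and each other arm had between 0 and 6 in either library. The most read of them are shown with the added base in capitals.
miR-34a-5p, tail A: tggcagtgtcttagctggttgttA
miR-34a-5p, tail T: tggcagtgtcttagctggttgttT
miR-34c-5p, tail A: aggcagtgtagttagctgattgcA
miR-34c-5p, tail T: aggcagtgtagttagctgattgT
In the DMSO and AICAR libraries these tags had 18 and 72, 17 and 43, 186 and 256, and 104 and 205 reads, in this order. Among tails of 1 base, A made up 60.9% and 71.2% on miR-34a-5p and 63.7% and 58.8% on miR-34c-5p. The templated miR-34a-5p tag of 24 nt had 1 and 0 reads and the templated miR-34c-5p tag of 24 nt 67 and 181, both fewer than the tags with tail A of that length. The miR-34c-5p tag with tail T has the length of the most abundant tag of that arm (7580 and 13086 reads). It also differs by 1 base from the miR-34b-5p tag, so that its sequence alone does not tell its arm. With this tag included, tags with 1 internal mismatch made up 42.9% and 45.4% of miR-34b-5p reads. On miR-34c-5p such tags made up 0.714% and 0.473%.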

How the results depend on the processing

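Of 210 alternative values, 184 kept their direction and their side of the threshold or stayed within 1.5 times the count, 16 lost a call, 1 gained one, 8 were counts that moved by more than 1.5 times, and 1 changed direction. For single arms the threshold is the call, fold and p together, and for doses and ratios p alone. Part of the 184 could not change. No family tag was shared between hairpins, so that the rule of tags from 1 hairpin only left every arm as it was. An arm with a fold change between 0.5 and 2 cannot gain a call from another p-value. In 9 of the 184, an arm without a call crossed the limit of 0.01 for p. These are the 5p arms of Mir34a, Mir34b and Mir34c in the edgeR exact test (p = 0.0393, 0.129 and 0.140 with the coefficient 0.2, and 0.304, 0.434 and 0.467 with 0.4), miR-34b-5p (exact test p = 0.147) and miR-34a-3p (0.00885) relative to miRNA reads, and miR-34c-3p with tails counted (0.00698). The fold change of miR-34b-3p was 0.868 relative to miRNA reads. The ratio of Mir34b and Mir34c to Mir34a was 0.837 (adjusted p of the exact test 0.0377) with identical tags only. In the edgeR exact test with a coefficient of variation set to 0.2 or 0.4 the p-values were 0.144 and 0.471 for the seed dose (fold change 1.52), 0.0379 and 0.299 for Mir34a (1.84), 0.140 and 0.467 for Mir34b and Mir34c (1.52), and 0.0121 and 0.187 for Mir449 (0.450). Of all miRNAs, 21 were called higher and 113 lower relative to miRNA reads, 23 and 26 with at least 10 RPM, 33 higher in the edgeR exact test with the coefficient 0.2, and 5 and 6 with 0.4, and 30 were lower with tags of at least 21 nt. miR-449a-5p lost its call with identical tags (0.783), with tags of at least 21 nt (0.687), with tails counted (0.511) and under both edgeR settings, and miR-449c-5p only under these (exact test p = 0.0119 and 0.161). miR-34c-3p passed with tags of at least 21 nt (2.00). Over the other denominators and tag rules the fold change of the dose ran from 1.11 to 1.54, that of Mir34a from 1.35 to 1.96 and that of Mir449 from 0.330 to 0.542. No paired analysis was possible because each condition had 1 library. Arms with fewer than 50 reads in a library, as those of Mir449, allow wide intervals only.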

Other observations

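On the strand opposite to the hairpins, tags were found for Mir34b only, 2 tags with 1 DMSO read and 5 AICAR reads. The 5 AICAR reads were on the tag below, opposite bases 49 to 70 of the hairpin, which has the letters of the shared seed (capitals) at bases 2 to 8.
Mir34b, opposite strand: tGGCAGTGgagttagtgattgt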
